A study of Bos taurus with 47 samples.

Results

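The kidney of Holstein cattle was described by 4 RNA sequencing libraries out of the 47 in the series. These are the 4 libraries whose tissue label is kidney, 2 from males (libraries KIDN3770 and KIDN3773) and 2 from females (KIDN3842 and KIDN3886), 1 animal each. The digits of a title number the animal, so that MAMP3842 is a mammary library of the female of KIDN3842, and an animal is named here by its kidney library. The kidney libraries were set against the other 43 libraries, which carry 14 further labels: adipose tissue, frontal cortex, heart, ileum, liver, lung, muscle, rumen and spleen from the same 4 animals, ovary and uterus from both females, the lactating mammary gland of the first of these females (MAMP3842), the dry mammary gland of the other (MAMP3886), and lymphocytes of a further male. The labels give breed, tissue and sex, and no age, treatment, part of the kidney or number of cells. The values are FPKM, in which fragments are scaled to a transcript length of a kilobase and a library of 1000000 fragments, for 24616 Ensembl gene identifiers. The files do not pair these identifiers with gene names, and the reference table at hand holds none of them, so the kidney label was not checked against renal marker genes. Genes are called here by their rank and by the other tissues that share them, and 4 of them by identifier.

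The kidney filters blood in the glomeruli and recovers water, salts, sugars, amino acids and small proteins from the filtrate along the tubules, with different transport proteins in each segment. Its cortex is rich in proximal tubule cells, which also make glucose and activate vitamin D. Liver shares much of this metabolism, and the lining of the small intestine shares many of the uptake transporters. In a bulk sample, fewer cells of a type and less RNA per cell cannot be told apart.

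Kidney had an even profile with many genes at middling to high levels. Per library 12447.5 ± 139 genes reached 1 FPKM (SD, n = 4) and 1149.5 ± 5.2 reached 100 FPKM. The second count was 1154 in both males and 1145 in both females, while the means of the other 14 labels lay between 320 and 1100. At 1000 FPKM or more there were 75 and 77 genes in the males and 96 and 99 in the females. The 100 most abundant genes of each kidney library held 25.6% ± 1.40 of its summed FPKM. Frontal cortex was the only label with a lower mean share, 23.8% ± 1.22 (n = 4). The summed FPKM of the kidney libraries lay between 633328 and 661956, and their depth in fragments is unknown. FPKM is relative to a library's total, so a tissue ruled by few genes shows lower values for all others.

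The most abundant genes of kidney fell into a set restricted to kidney or a few tissues and a set abundant everywhere. The most abundant gene had 6582 and 8333 FPKM in males KIDN3770 and KIDN3773, and 8498 and 9868 FPKM in females KIDN3842 and KIDN3886. Its highest other label, adipose tissue, had a mean of 308 FPKM, so that kidney was 27.0 times as high. The adipose libraries ran from 49.4 to 730 FPKM, and without the highest (ADIP3842) their mean was 167 FPKM. The gene next in abundance had 6092, 7293, 7518 and 7592 FPKM in the same order. It was shared with liver, which had a mean of 4991 FPKM, and with spleen, at 3648 FPKM, and the lowest label was muscle with 188 FPKM. The third had 6206, 6884, 6198 and 6036 FPKM, and no other label had a mean above 9.79 FPKM. All 4 kidney libraries lay above every other library for each of these leading genes, but only narrowly for the second. Its highest other library, LIVE3770, had 6089 FPKM against 6092 FPKM in KIDN3770. The genes ranked 4 to 7 behaved otherwise: kidney had means of 3858, 3620, 3262 and 3065 FPKM, and between 5 and 9 of the other 14 labels lay above it.

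Of the 15 most abundant kidney genes, 8 were at least 4-fold higher in kidney than the average of the other labels by the test described next. Only 2 of the 15 exceeded every other label at least 4-fold. Of the 100 most abundant, 38 were higher and none was lower, 15 exceeded every other label at least 4-fold, and 47 were within 4-fold of kidney, or above it, in every other label. Abundant genes with a single other label within 4-fold of kidney included the gene ranked 8. It had a kidney mean of 2809 FPKM ± 510 (SD, n = 4), against 1708 FPKM in liver and 183 FPKM in ileum. Its median over the 14 labels was 1.49 FPKM. The gene ranked 14 had 1282 and 2088 FPKM in males KIDN3770 and KIDN3773, and 2248 and 2916 FPKM in females KIDN3842 and KIDN3886. Liver had a mean of 965 FPKM of it, adipose tissue 150 FPKM and ileum 38.3 FPKM, and the median over the 14 labels was 0.818 FPKM. The gene ranked 15 was more widely shared. It had 2128 FPKM ± 276 (n = 4) in kidney and a mean of 2111 FPKM in ovary, and 8 of the 14 other labels lay at least 4-fold below kidney.

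**Figure D1:**
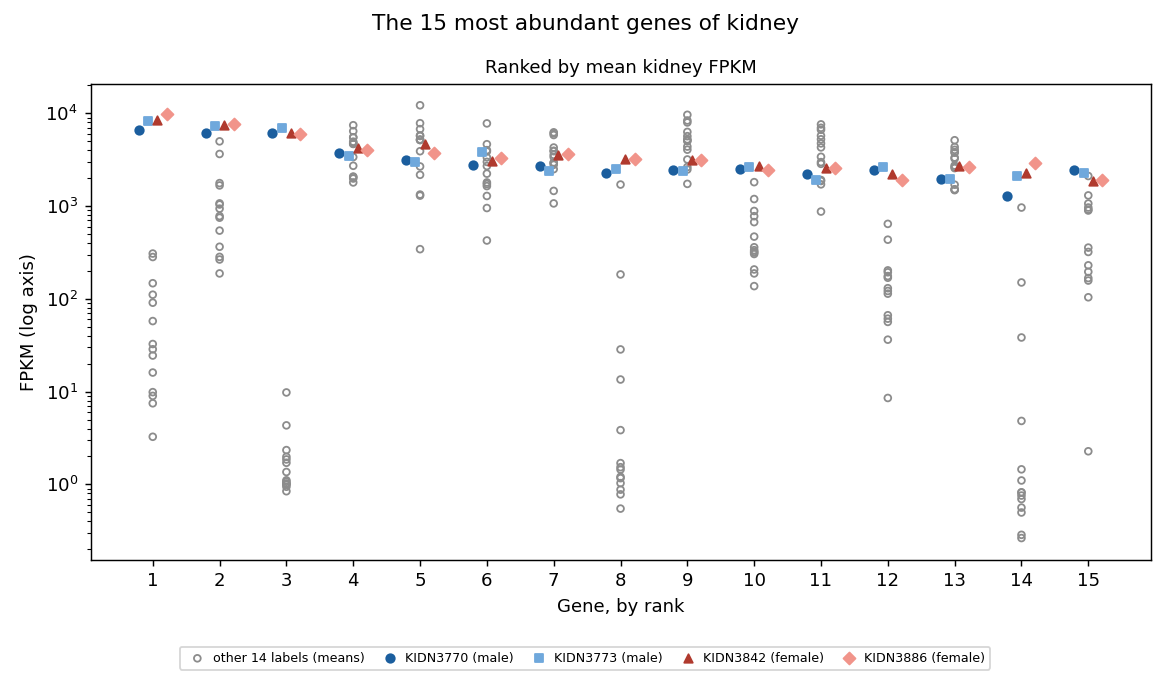
FPKM (log axis) of the 15 most abundant kidney genes, ordered along the x axis by their kidney mean. Filled symbols are the 4 kidney libraries and open circles the means of the other 14 labels; the third gene stands apart, with every other label at or under 9.79 FPKM, while the genes ranked 4 to 7 lie within the range of the other labels.

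The kidney mean was set against an average of the 14 other label means, each with equal weight, on log2(FPKM + 1). Of the 16634 genes that reached 1 FPKM in 2 or more libraries, 1100 were higher in kidney (6.61%) and 144 were lower (0.866%). A call needed a limma adjusted p under 0.05 and a difference of at least 2 on this scale, or 4-fold. Without the minimum difference, 6313 genes were higher and 4704 lower. The median difference of all genes tested was 0.06. Higher genes were 88.4% of the calls, 91.3% after rescaling every library to the same sum (1210 higher and 116 lower genes), 76.0% after quantile normalization (853 and 269) and 74.1% with a pseudocount of 0.1 (1649 and 576). The median over all genes shifted by -0.24 after quantile normalization and by 0.11 after rescaling to the same sum. With quantile normalization, 852 of the 1100 higher genes and all 144 lower genes were called again in the same direction. With the pseudocount of 0.1, 1099 and 144 were.

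**Figure D2:**
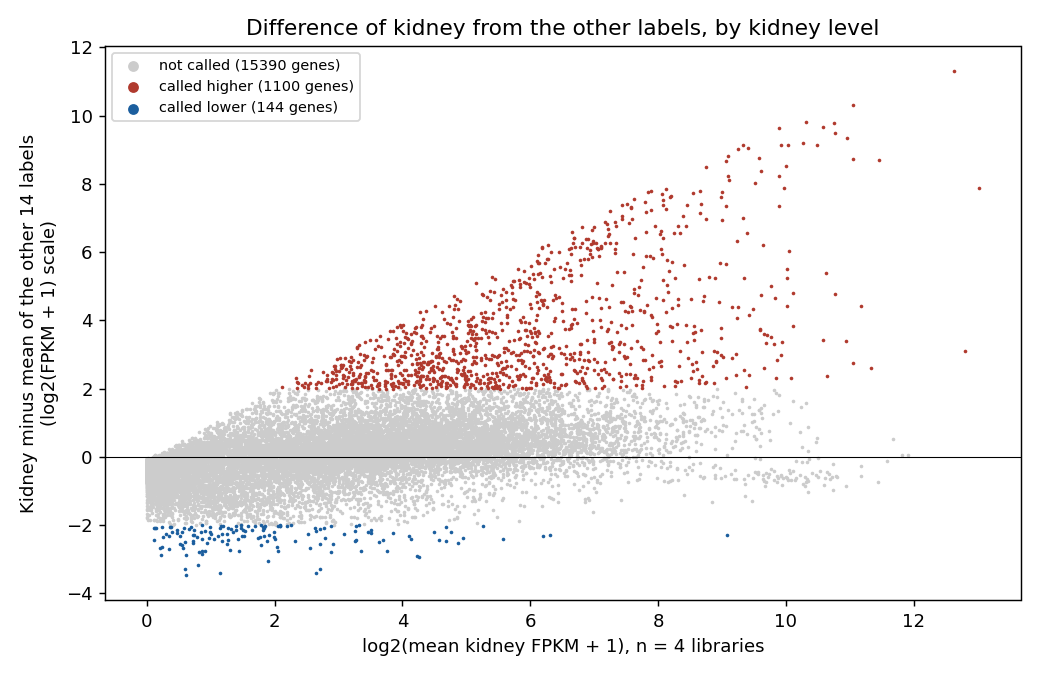
Difference of kidney from the mean of the other 14 labels (y axis, log2(FPKM + 1) scale) against the kidney level (x axis, log2 of the mean FPKM of 4 libraries plus 1), 1 point per gene tested. The 1100 higher genes reach a difference of 11.31 and the 144 lower genes -3.46.

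The higher genes were mostly well expressed. Their median kidney level was 53.4 FPKM, against 6.75 FPKM for all genes tested, 997 had at least 10 FPKM, 369 at least 100 FPKM and 31 at least 1000 FPKM. Together they held 28.2%, 30.2%, 29.6% and 30.4% of the summed FPKM in the libraries of animals KIDN3770, KIDN3773, KIDN3842 and KIDN3886. The same genes held 22.1% ± 0.806 in liver (SD, n = 4) and 6.15% ± 3.11 in ileum (n = 4), and between 1.19% and 5.32%, as label means, in the other 12 labels. These levels and shares follow from how the genes were chosen, since a call needs kidney values well above the mean of the other labels. They are given without a test. The differences lay between 2 and 3 for 532 genes, from 3 to under 5 for 371, from 5 to under 8 for 170, and at 8 or more for 27.

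The largest difference belonged to ENSBTAG00000009828, which is also the third most abundant kidney gene. Its libraries had 6206 and 6884 FPKM in males KIDN3770 and KIDN3773, and 6198 and 6036 FPKM in females KIDN3842 and KIDN3886. The highest of the other 43 libraries had 15.3 FPKM. The difference of ENSBTAG00000009828 was 11.31 ± 0.38 (SE) with a limma adjusted p of 5.924e-25, and its kidney libraries differed little, with an SD of 0.084 on the log2 scale. The next, ENSBTAG00000002559, had 2195, 1943, 1957 and 2410 FPKM in the same order of animals. Elsewhere its highest library had 4.00 FPKM and its highest label, liver, a mean of 3.15 FPKM. The difference of ENSBTAG00000002559 was 10.31 ± 0.22 (SE), with a limma adjusted p of 7.409e-32. For both the 4 kidney libraries stood together, far above all others.

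Among the called genes whose kidney libraries all lay above every other library, the next 13 had kidney means between 545 and 1750 FPKM and differences between 8.83 and 9.83. For 10 of all 15 the highest other label had under 10 FPKM. The exceptions were the genes ranked 5, 7, 10, 11 and 12, with 17.1 FPKM in the lactating mammary gland, 117 in frontal cortex, 14.4 in lung, 116 in liver and 51.5 in liver. The gene ranked 9 was the most restricted of these 15 by its ratio to the next label. It had 793 and 770 FPKM in males KIDN3770 and KIDN3773, 630 in female KIDN3842 and 371 in female KIDN3886, and its highest other label, muscle, had a mean of 0.349 FPKM. That mean rested on the muscle library LDOR3773, with 1.34 FPKM, and was 0.0187 FPKM without it. Among its kidney libraries, female KIDN3886 was the lowest. The gene ranked 15 had the same lowest animal, with 353 FPKM against 515, 605 and 707 in the others. In the gene ranked 13 male KIDN3773 was lowest, with 425 FPKM against 692 to 851, so the order of the animals was not the same from gene to gene.

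**Figure D3:**
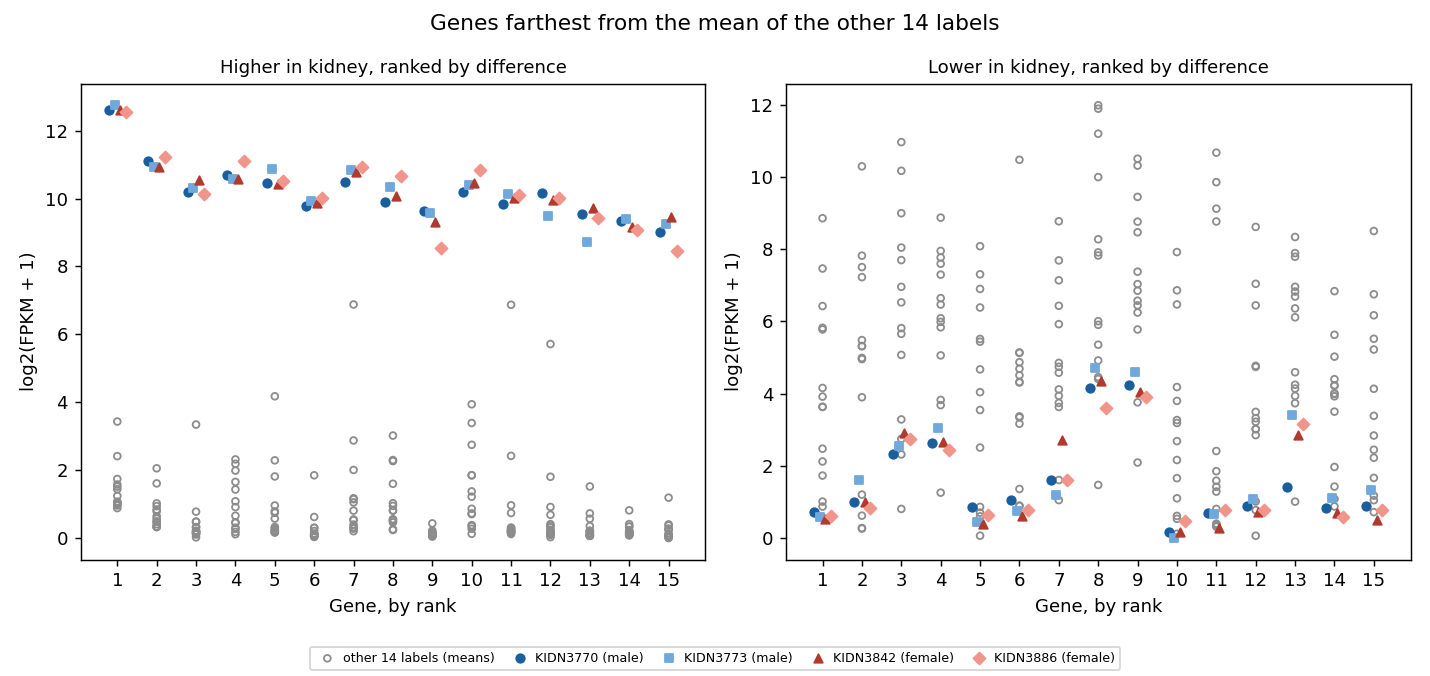
log2(FPKM + 1) of the genes with the largest differences, in order of rank along the x axis: 15 higher genes with kidney above every other library (left) and 15 lower genes (right). Filled symbols are the 4 kidney libraries and open circles the means of the other 14 labels; the higher genes stand clear of all labels, while every lower gene but those ranked 1, 6 and 14 has other labels at or below the kidney mean.

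How far the higher genes were confined to kidney varied widely. All 4 kidney libraries lay above every other library in 459 of the 1100 (41.7%), and such genes made up 4.29% of all genes tested (713, of which 254 had no 4-fold call). Both the call and this count use the same kidney values, so the larger share among the called genes is a description. In the opposite group, 444 of the higher genes had at least 1 other label with a mean above that of kidney. A level at least 4 times that of each of the 14 other labels was found in 170 of the higher genes. Another 270 had exactly 1 other label within 4-fold of kidney or above it, 166 had 2, 166 had 3 and 328 had 4 or more.

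Counted over all identifiers, 197 genes had a kidney mean of at least 1 FPKM that was 4 or more times as high as in any other label. Their levels were uneven. Among the 195 of them that entered the test, the median was 59.9 FPKM, 148 had at least 10 FPKM and 74 at least 100 FPKM, and the 10 most abundant held 52.3% of the sum of their kidney means. At least 20 times every other label was reached by 69 and at least 100 times by 32. In 43 of the higher genes every other label had a mean under 1 FPKM, with kidney means from 3.34 to 641 FPKM and a median of 18.4 FPKM. Without the liver libraries 348 genes passed the 4-fold rule in place of 197, since genes that only liver shares then count as restricted to kidney.

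Small amounts of the kidney genes appeared in other tissues, and their part in the ratios above was not tested. There were 12 genes with 500 FPKM or more in kidney and a mean 100 or more times that of any other label. Over these genes, the median level in the 43 other libraries was 191 ppm (parts in 1000000) of the kidney mean, as the median over libraries. It was 0 in 5 libraries, 4 of them among the 9 other libraries of male KIDN3770, whose median was 12.3 ppm. The 9 other libraries of male KIDN3773 had between 114 and 1996 ppm. The highest was the muscle library of that animal (LDOR3773) at 1996 ppm, followed by its spleen library (SPLE3773) at 511 ppm. In that muscle library the 12 genes had 0.881 to 15.3 FPKM, and in the other 3 muscle libraries at most 1.17 FPKM. Without it there were 1098 higher and 141 lower genes.

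Liver was the closest partner of kidney. Over the 16634 genes, the Spearman correlation of label means with kidney was 0.804 for liver, 0.80 for ovary and 0.799 for the lactating mammary gland, and lowest for lymphocytes (0.637). These are descriptions across genes, which are not replicates. Liver was the highest of the other labels for 330 of the 1100 higher genes (30.0%), frontal cortex for 151 (13.7%), ileum for 137 (12.5%) and lung for 88 (8.0%). Over the 16503 genes of the fit by sex described below, the highest other label was liver for 5.36%, frontal cortex for 19.0% and ileum for 8.13%. Frontal cortex was thus less frequent among the higher genes than among all genes, and its overall correlation was low (0.647). The share over all genes was not computed for lung. Of the 270 higher genes with a single other label within 4-fold, that label was liver for 134, frontal cortex for 39, ileum for 36, lung for 16 and rumen for 12. The rest were spread over 9 labels with 1 to 8 genes each. An example shared with ileum had 1450 and 2051 FPKM in the kidneys of males KIDN3770 and KIDN3773, 2456 in female KIDN3842 and 1981 in female KIDN3886. It had a mean of 1054 FPKM ± 1031 (SD, n = 4) in ileum and 0.157 FPKM in liver. The ileum libraries ran from 33.7 to 2431 FPKM, and without the highest (ILEU3842) their mean was 596 FPKM.

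**Figure D4:**
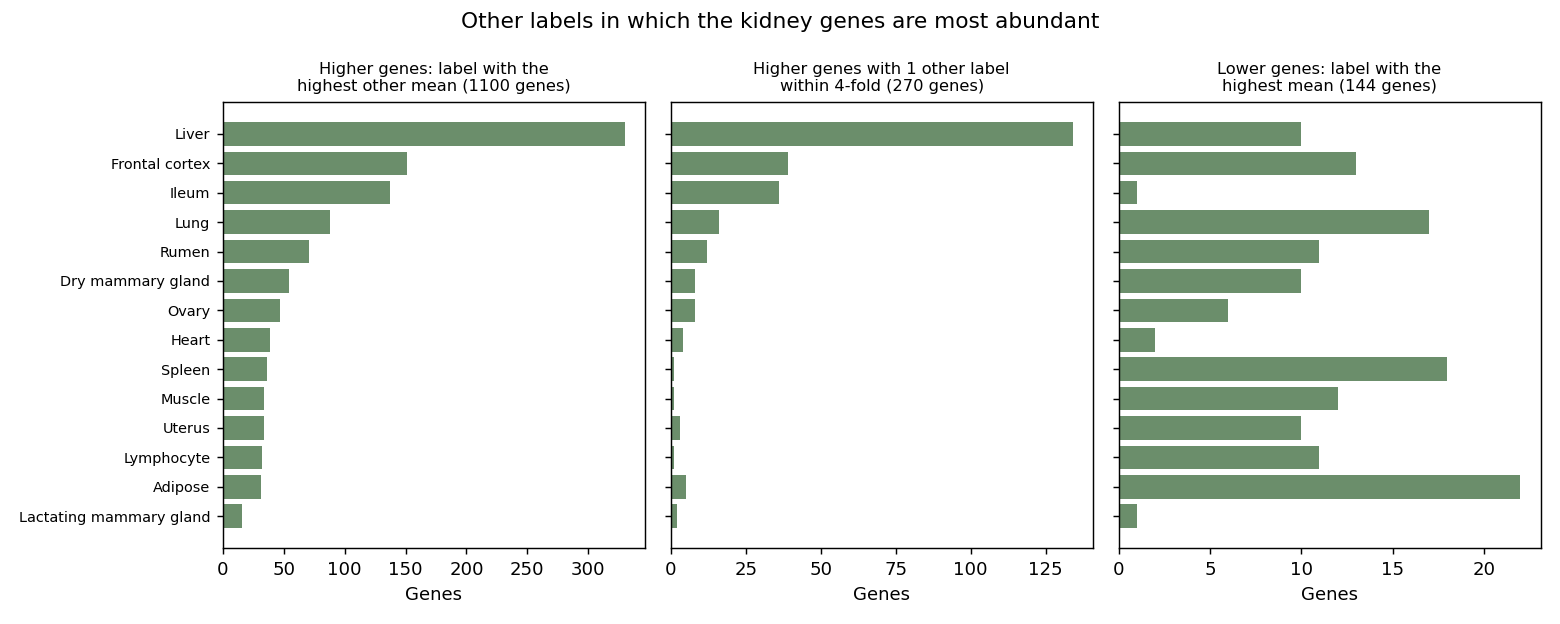
Number of kidney genes (x axis) per other label (y axis): the label with the highest other mean for the 1100 higher genes (left), the single label within 4-fold for 270 higher genes (middle), and the label with the highest mean for the 144 lower genes (right). Liver leads the left and middle panels with 330 and 134 genes, and adipose tissue the right one with 22.

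Kidney and liver were also compared directly in the same fit. Kidney was at least 4-fold higher in 1404 genes (8.44% of those tested) and liver in 557 (3.35%). The median kidney minus liver difference over all genes was 0.64 on the log2(FPKM + 1) scale, and after quantile normalization the counts were 732 and 804, so which tissue had more higher genes depended on the scaling. With a pseudocount of 0.1 they were 2585 and 798. Of the 1100 genes higher in kidney than the mean of the labels, 635 (57.7%) were also called over liver, 35 were called under liver, and 430 were neither. This share uses the same kidney libraries in both comparisons and is a description.

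The leading gene over liver was again ENSBTAG00000009828, at 1.07 FPKM in liver. The gene after it was the one shared with ileum, and the next 3 stood among the higher genes above at ranks 7, 5 and 3, with liver means of 0.219, 0.128 and 0.0132 FPKM. Their 5 differences from liver lay between 10.28 and 11.63. On the liver side, the leading gene had a liver mean of 34565 FPKM, and in kidney 5.55 and 7.30 FPKM in males KIDN3770 and KIDN3773, 1.38 in female KIDN3842 and 6.34 in female KIDN3886. The next 4 had liver means between 4851 and 15293 FPKM and kidney values between 0 and 3.70 FPKM. The differences of all 5 genes lay between -12.60 and -11.70, with limma adjusted p from 1.097e-23 to 6.134e-15. Female KIDN3842 had the lowest kidney value for all 5 genes, and 0 FPKM for 3 of them.

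The kidney library of female KIDN3842 also held least of the transcripts that belong to other tissues. For 18 genes restricted to liver it had 33.3 ppm of the liver level, against 144, 225 and 157 ppm in animals KIDN3770, KIDN3773 and KIDN3886. For 10 genes restricted to rumen it had 0 ppm against 305, 79.6 and 220 ppm, and for 9 restricted to muscle 7.12 ppm against 236, 191 and 252 ppm. It is 1 of 10 libraries in the series with under 50 ppm of the liver genes, of which 9 come from this female and the other is the lymphocyte library. Her muscle, rumen and lactating gland libraries had 445, 517 and 118 ppm of them. Her liver library, judged by the rumen genes, had 270 ppm. The labels name no batch. Without these 10 libraries, kidney had 1069 higher and 174 lower genes. Of the main calls, 1035 of 1100 and 127 of 144 were made again.

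The lower genes were fewer, and their differences were smaller than those of the higher genes. Their median kidney level was 1.85 FPKM, and 48 of the 144 had under 1 FPKM. Only 7 had a difference of -3 or below. They were not rare elsewhere: the highest label had a median of 245 FPKM over these genes, and 112 of them had a label at 100 FPKM or more. In the kidney libraries of animals KIDN3770, KIDN3773, KIDN3842 and KIDN3886 the 144 genes held 0.221%, 0.263%, 0.175% and 0.193% of the summed FPKM. Their label mean was 8.76% ± 1.29 in rumen, 6.60% ± 0.805 in lung, 6.38% ± 0.383 in spleen and 5.01% ± 0.453 in muscle (SD, n = 4 each), and lowest outside kidney in the lactating mammary gland, at 0.612%. These levels and shares are descriptions of genes chosen by this contrast, since a lower call needs the other labels to lie well above kidney on average. On the log2(FPKM + 1) scale a fall cannot exceed the mean of the other labels.

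The leading lower gene, ENSBTAG00000007109, had 0.640 and 0.505 FPKM in males KIDN3770 and KIDN3773, and 0.447 and 0.537 FPKM in females KIDN3842 and KIDN3886. Muscle had a mean of 463 FPKM, the median label 12.8 FPKM and the lowest label, lymphocytes, 0.830 FPKM. The difference of ENSBTAG00000007109 was -3.46 ± 0.25 (SE) with a limma adjusted p of 9.132e-15, and its 4 kidney libraries lay below all 43 others. The next, ENSBTAG00000000310, had 0.993, 2.07, 1.01 and 0.777 FPKM in the same order of animals, with male KIDN3773 the highest. Adipose tissue had a mean of 1256 FPKM of it and lymphocytes 0.199 FPKM. The difference of ENSBTAG00000000310 was -3.41 ± 0.36 (SE), with a limma adjusted p of 2.272e-10, and 11 of the 14 other labels lay above kidney.

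The lower genes ranked 3 to 15 had differences between -3.40 and -2.76. Their highest labels were muscle for 3, spleen for 2, rumen for 2, and heart, lung, adipose tissue, lymphocytes, the dry gland and the lactating gland for 1 each. The gene ranked 8 kept 16.7 and 25.4 FPKM in males KIDN3770 and KIDN3773 and 19.5 and 11 FPKM in females KIDN3842 and KIDN3886, beside a mean of 4063 FPKM in muscle. The gene ranked 13 was uneven, with 1.67 FPKM in male KIDN3770 and 6.27 to 9.68 FPKM in the other 3 animals. The gene ranked 11 was low in many tissues: its median label had 1.84 FPKM, while muscle had 1635, frontal cortex 557 and liver 435 FPKM. One lower gene, named here after its values were seen, kept a kidney mean of 542 FPKM, the highest among the 144.

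Low levels were in most cases shared with some other tissue. Kidney had the lowest mean of all 15 labels in 16 of the 144 lower genes, and a median of 2 other labels lay below it. Lymphocytes lay below kidney in 60 of the 144 (41.7%), the lactating mammary gland in 50 (34.7%), muscle in 41 (28.5%), liver in 33 (22.9%) and frontal cortex in 31 (21.5%). Ileum lay below kidney in 0, adipose tissue in 1, and lung and the dry mammary gland in 2 each. How often each label lay below kidney over all genes tested was not computed. These counts therefore do not show whether the lower genes differ from other genes in this. On the high side, a median of 9 labels were at least 4 times kidney. Adipose tissue was the highest label for 22 lower genes, spleen for 18, lung for 17, frontal cortex for 13 and muscle for 12. Over the 16503 genes of the fit by sex described below, frontal cortex was the highest other label for 19.0%. Shares over all genes were not computed for the other labels named here. The 4 kidney libraries lay below every other library in 3 of the genes tested (0.018%), of which 2 were called lower. Without all libraries of the animal of KIDN3842 there were 17 such genes, and without the kidney library of male KIDN3773 there were 6.

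The 4 kidney libraries were alike. Their Spearman correlations across genes ran from 0.978 (male KIDN3773 with female KIDN3842) to 0.986 (male KIDN3770 with female KIDN3886), so the closest pair joined a male and a female. Over 12509 genes with a kidney mean of at least 1 FPKM, the median SD among libraries was 0.194 on the log2(FPKM + 1) scale. Among the 10 tissues of the same animals, it was lower in frontal cortex (0.173) and spleen (0.192) and highest in ileum (0.327). An SD of at least 1 was found for 108 kidney genes (0.863%). The median SD was 0.244 for the 1100 higher genes, of which 22 had an SD of at least 1, and 0.280 for the 195 tested genes restricted to kidney, of which 5 did.

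Each library was set against the median of the other 3. Animals KIDN3770 and KIDN3773, the males, had 171 and 175 genes at least 2-fold above that median and 77 and 76 below. The females went the other way, with 99 above and 245 below in KIDN3842 and 90 above and 146 below in KIDN3886. Ileum was the label in which the genes above the median were most often highest in both males, with 41 and 45 genes. Genes 2-fold below it in females were most often highest in adipose tissue (39) and ileum (37) in KIDN3842, and in ileum (41) in KIDN3886. Among genes 2-fold below it in the males, liver came first, with 27 and 16. Over the 16503 genes of the fit by sex described below, ileum was the highest other label for 8.13% and liver for 5.36%. The share over all genes was not computed for adipose tissue. Of the 1100 genes higher in kidney, 10, 18, 19 and 20 lay 2-fold above in KIDN3770, KIDN3773, KIDN3842 and KIDN3886, or 0.909% to 1.82%, beside 0.541% to 1.05% of all 16634 genes. Those 2-fold below numbered 30, 21, 20 and 22, or 1.82% to 2.73%, beside 0.457% to 1.47% of all genes.

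The largest spread belonged to genes with traces in only some libraries. Among genes with a kidney mean of at least 10 FPKM, the gene with the largest SD (2.76) had 31.0 FPKM in male KIDN3770, 22.5 FPKM in female KIDN3886 and 0 in male KIDN3773 and female KIDN3842. The genes ranked 3 and 4 showed the same pattern, with 25.2 and 29.5 FPKM in male KIDN3770, 18.9 and 19.5 FPKM in female KIDN3886 and at most 0.220 FPKM in the other kidneys. These 3 are the most abundant genes of the lactating mammary gland, where they had 157804, 132810 and 150741 FPKM. All of the 7 most abundant genes of that gland followed the pattern. Their median level was 190 ppm of the lactating gland in the kidney of male KIDN3770, 142 ppm in that of female KIDN3886, and 0 in the other kidneys. Outside the mammary glands, 29 of 45 libraries had 0 ppm, among them all the other libraries of male KIDN3770. In female KIDN3886 the traces were not limited to kidney. Her other libraries outside the mammary gland had from 107 ppm in heart to 1405 ppm in ovary, except liver with 0. Male KIDN3770 has no mammary library, and the part of library handling in these values was not tested.

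The other genes of large spread differed by animal. The gene with the next largest SD (2.70) had 0.379 FPKM in male KIDN3773 and 56.9, 53.9 and 62.0 FPKM in animals KIDN3770, KIDN3842 and KIDN3886. It was called higher in kidney, with a difference of 2.07 ± 0.90 (SE) and a limma adjusted p of 0.0421. Its kidney mean was 43.3 FPKM, against 33.7 FPKM in liver, where the libraries ran from 0.0985 to 47.2 FPKM. The gene ranked 5 had 28.5 FPKM in male KIDN3770 and 15.6 FPKM in female KIDN3842, against 0.119 in male KIDN3773 and 0.154 in female KIDN3886. Its highest label was lymphocytes, with 226 FPKM.

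**Figure D5:**
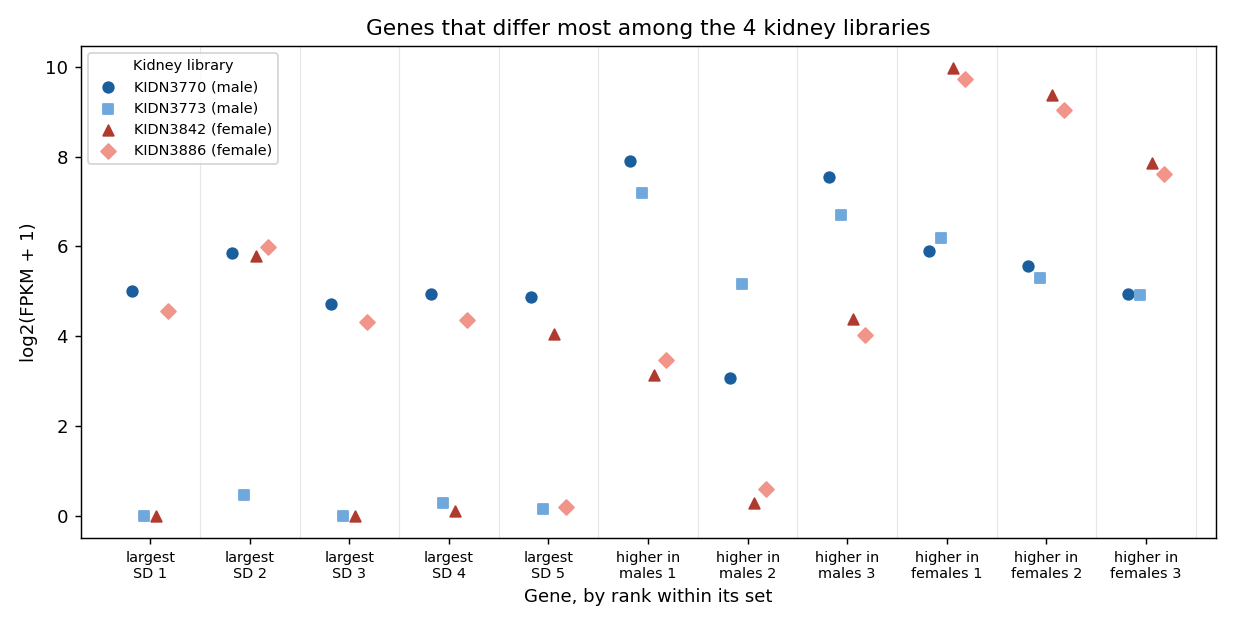
log2(FPKM + 1) in the 4 kidney libraries (symbols) for the 5 genes with the largest SD among kidney libraries and for the 3 genes per direction with the largest called difference between males and females (x axis). In the sets by sex the males and the females do not overlap, while the genes of largest SD split the animals in other ways.

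Males and females were compared within kidney in a fit over the 40 libraries of the 10 tissues of all 4 animals. Among 16503 genes, 154 were higher in males (0.933%) and 41 in females (0.248%) at a limma adjusted p under 0.05, with 2 animals of each sex. With the animal as a random block, 151 and 42 were called, of which 151 and 40 were among them. All 154 and all 41 had no overlap between the males and the females, as had 26.5% and 13.3% of all genes tested. The median called difference was 1.14 and -1.04 (male minus female, log2(FPKM + 1) scale). The highest other label was ileum for 43 of the 154 (27.9%) and frontal cortex for 24 (15.6%), while over all genes of the fit these were the highest for 8.13% and 19.0%. For the 41 it was liver in 15 (36.6%), against 5.36% of all genes. Among the 1100 genes higher in kidney, which are 6.67% of the genes in this fit, were 16 of the 154 (10.4%) and 13 of the 41 (31.7%).

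The leading gene higher in males had 239 and 145 FPKM in males KIDN3770 and KIDN3773 and 7.77 and 10.1 FPKM in females KIDN3842 and KIDN3886. Its male minus female difference was 4.24 ± 0.40 (SE), with a limma adjusted p of 7.693e-07. Heart was its highest other label, at 60.7 FPKM. The next 2 had 7.41 and 34.6 FPKM in males KIDN3770 and KIDN3773 against 0.222 and 0.506 FPKM in the females, and 185 and 103 FPKM against 19.8 and 15.3 FPKM. Both were higher elsewhere than in kidney, with means of 842 FPKM in spleen and 3705 FPKM in ileum. On the female side, the leading gene had 997 and 846 FPKM in females KIDN3842 and KIDN3886 and 58.5 and 72.1 FPKM in males KIDN3770 and KIDN3773. Its difference was -3.80 ± 0.39 (SE), with a limma adjusted p of 3.773e-06. The second had 662 and 522 FPKM in the females against 46.4 and 38.4 FPKM in the males, and liver was the highest other label of both, at 219 and 206 FPKM. The third had 230 and 195 FPKM against 29.6 and 29.4 FPKM.

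The number of genes called by sex was lower for males without any 1 of the animals. Higher in males were 63, 74, 70 and 68 genes without animals KIDN3770, KIDN3773, KIDN3842 and KIDN3886, and higher in females were 31, 26, 36 and 44. Each of these fits leaves 1 sex with a single kidney library, which is taken to vary like the other tissue and sex groups. On the 4 kidney libraries alone 36 and 6 were called, and quantile normalization gave 65 and 34. With 2 animals of each sex, sex cannot be told apart from other differences between the pair of males and the pair of females. Lactation, and low traces of liver, rumen and muscle genes in the kidney library, belonged to female KIDN3842 and not to female KIDN3886. The kidney difference was also set against the mean male minus female difference of the other 9 tissues. Over all 16503 genes this second test was passed by 24 toward males (0.145%) and 18 toward females (0.109%), and all of these were among the 154 and the 41. The genes were called for their kidney difference, which enters both tests, so the second is no independent support for the first.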

How the data were processed

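Total RNA was sequenced as paired reads of 150 bases, per the labels' protocols. Per the submitters' processing notes, Trimmomatic 0.39, STAR, Cufflinks and the build UMD3.1 were used; not given in the sources used here are their order, settings and gene annotation. The authors deposited FPKM in 51 columns, of which 47 matched a sample by title and 4 matched none and were left out. One muscle title, LDO3770, was matched to its column by tissue code and animal number. None of the 24616 identifiers could be paired with a symbol, so the marker lists and promoter motifs set out by symbol could not be applied. FPKM holds no counts, so no counting interval was computed.

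On log2(FPKM + 1), limma 3.58.1 (R 4.3.3) was used for linear models with an intensity trend and Benjamini-Hochberg adjustment. Differences on this scale understate changes of low genes. The kidney fit used all 47 libraries, of which 3 labels have 1 each. On simulated data with 200 of 16634 genes changed, it recovered 86.0% at a log2 difference of 1 and 100.0% at 2. Of its calls by adjusted p alone, 6.76% were false. Each simulated gene had the same mean in all labels apart from the change in kidney, with independent normal noise and no animal effect. Only genes with a mean above 2 on the log2 scale were changed. Real labels differ from one another and animals share deviations, so these rates need not hold for the data. Tables and plots used Python 3.11.15, pandas 2.3.3, numpy 2.4.6 and matplotlib 3.10.9.

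Genes were described by rank: the 15 most abundant in kidney, the 15 called higher with the largest difference among those above every other library, the 15 called lower with the largest fall, the 5 with the largest SD at 10 FPKM or more, the 5 largest per direction against liver and the 3 largest per direction by sex. The members, lists and rules were chosen with earlier results of these data known. Libraries of an animal share its number. Kidney deviations from the tissue mean correlated with those of the same animal's other tissues (median 0.160 to 0.236 per animal). With other animals' the medians were -0.116 to -0.0593. Deviations from a tissue mean cancel out over the animals, so negative medians with other animals follow from positive ones for the same animal. Alternatives were the scaling, pseudocount, filter, labels, libraries and an animal block.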

Additional observations from a re-analysis of the deposited data

Results flagged for a closer look

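Over 61 genes described above, the 4 kidney libraries were examined for a library far from the other 3, by Dixon's ratio of the gap to the range. Chance flags about 1 group in 20 that was not chosen for its spread, and 2 genes were found. The gene with the second largest SD, which was chosen for its spread among these libraries, had a ratio of 0.869, with 0.379 FPKM in male KIDN3773 and 53.9 to 62.0 FPKM in the other kidneys. The gene ranked 5 on the liver side had a ratio of 0.831, with 0 FPKM in female KIDN3842 and 1.10 to 1.32 FPKM in the others.

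For 4 of the 6 genes described by sex, the male minus female difference in kidney differed from the mean difference of the other 9 tissues (limma adjusted p under 0.05). All 6 were picked for the largest kidney differences, so these values describe them and are no independent test. The leading male gene differed by 3.60 ± 0.42 (SE, log2(FPKM + 1) scale), with a mean difference of 0.64 in the other tissues. The 3 female genes differed by -3.34 ± 0.42, -3.12 ± 0.66 and -2.23 ± 0.45, with mean differences of -0.47, -0.65 and -0.57 in the other tissues. The limma adjusted p were 5.03e-05, 8.52e-05, 0.0439 and 0.0284 in this order. The other 2 male genes had 1.61 ± 0.81 and 2.69 ± 0.69, with limma adjusted p of 1.0 and 0.139.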

How the results depend on the processing

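The 15 higher and 15 lower genes described, and the 10 against liver, kept their direction and stayed past the threshold under every alternative run. The 1100 higher genes became 853 to 1649 under the alternatives that kept the minimum difference, and 6313 without it. The 144 lower genes became 269 after quantile normalization, 576 with a pseudocount of 0.1 and 4704 without the minimum difference, the last chosen after seeing the data. Without each animal or kidney library in turn, the counts were 1059 to 1142 and 115 to 192. Genes below every other library, 3 in the main comparison, numbered 87 after quantile normalization, 1 after rescaling, 6 without lymphocytes, 24 with only the 10 tissues of all 4 animals, 11 without the 10 low-trace libraries, 12 without liver and 3 to 17 without each animal or kidney library. The 197 restricted genes were 348 without liver. Against liver, kidney was higher in 732 genes after quantile normalization and 2585 with a pseudocount of 0.1. By sex, 154 and 41 genes became 65 and 34 after quantile normalization, 161 and 21 with a pseudocount of 0.1, 36 and 6 on the kidney libraries alone, and 63 to 74 and 26 to 44 without each animal. Apart from those fewer samples, the cause was not tested. Among the genes by sex, male genes 2 and 3 and female gene 2 missed the threshold in 9 of 60 values, with their direction kept. With the animal as a replicate block the kidney counts were 1095 and 150, with 1088 of the 1100 and 138 of the 144 called again, and the liver counts 1404 and 557. The block changed no call of the 15 higher, 15 lower and 10 liver genes. By sex, a random animal block, chosen after seeing the data, gave 151 and 42 genes and changed no call of the 6 described. Depth is unknown, so low values carry no detection limit.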

Other observations

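The genes restricted to kidney kept a nearly constant weight among the animals. The 197 genes held 7.62%, 8.26%, 7.64% and 8.10% of the summed FPKM in animals KIDN3770, KIDN3773, KIDN3842 and KIDN3886. In the other 14 labels their mean share lay between 0.0202% (lactating mammary gland) and 0.235% (liver). Against the median of the other 3 kidneys, the median deviation of the 195 that entered the test was 0.06, 0.03, -0.05 and -0.03 on the log2 scale in the same order, beside 0.07, 0.00, -0.03 and -0.05 for all genes with at least 1 FPKM in kidney.

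The number of higher genes within 4-fold of kidney differed by label without following the overall correlation. It was 446 of 1100 in liver (40.5%), 348 in ileum (31.6%), 283 in lung (25.7%) and 272 in frontal cortex (24.7%), but 203 in ovary (18.5%) and 74 in muscle (6.73%). Ovary had the second highest correlation with kidney over all genes, and ileum the tenth of 14.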
